A study of Mus musculus with 13 samples.

Results

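The miR-148/miR-152 family was examined in thymic iNKT cells of wild type (WT) and *Tet2/3* DKO mice. It was taken as every row of the deposited count tables that carries the name of its 3 hairpins, mmu-mir-148a, mmu-mir-148b and mmu-mir-152, or of a mature arm of one of them. This gave 3 of 1127 hairpins and 4 of 1297 mature miRNAs, and all of them had enough counts to be tested. The mature arms were miR-148a-3p, miR-148b-3p, miR-152-3p and miR-148b-5p. The 5p arms of mir-148a and mir-152 were not analysed here.

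The measurement was small RNA-seq of total RNA from iNKT cells, T cells with an invariant TCR that recognizes lipids on CD1d. Cells were sorted by FACS from the thymus of 6 WT mice and 7 mice of genotype Tet2-/-Tet3flx/flx CD4cre, aged 21 to 25 days and of both sexes, with 1 library per mouse. In the *Tet2/3* DKO mice *Tet2* is missing from every cell of the animal, whereas the floxed *Tet3* is deleted by a Cre that the *Cd4* promoter drives, and thus in T cells. TET2 and TET3 oxidize 5-methylcytosine, a step towards loss of DNA methylation.

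A miRNA is cut from its hairpin by DROSHA and DICER, and 1 arm is loaded into an Argonaute protein, where the seed at its 5′ end pairs with sites in target mRNAs. The miR-148/miR-152 family is known for its action on *Dnmt1*, which encodes the methyltransferase that copies DNA methylation to the new strand at replication, and on *Bcl2l11*, which encodes the apoptosis activator BIM. In T cells miR-148a has been described to restrain BIM and so to favour survival of repeatedly activated cells. Neither mRNA nor protein was measured in these libraries.

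The mature sequences of the 4 arms, from RefSeq for GRCm38, are shown because the family is defined by them. Capitals mark the seed, bases 2 to 8 counted from the 5′ end.
mmu-miR-148a-3p: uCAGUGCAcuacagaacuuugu
mmu-miR-148b-3p: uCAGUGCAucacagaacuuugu
mmu-miR-152-3p: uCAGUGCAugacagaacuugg
mmu-miR-148b-5p: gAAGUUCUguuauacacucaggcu

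The 3 arms of the 3p side share the seed CAGUGCA, and in the RefSeq table of 1679 mouse mature sequences no other sequence has it at bases 2 to 8. Behind the seed they differ at few positions. From miR-148a-3p to miR-148b-3p the changes are C9U and U10C, so that 20 of 22 bases are identical. From miR-148a-3p to miR-152-3p they are C9U, U10G and U20G, with 18 of 21 bases identical, and from miR-148b-3p to miR-152-3p they are C10G and U20G, with 19 of 21 identical. How reads that match more than one member were counted is not given in the sources used here, so the split of reads between these near-identical arms is uncertain. The miR-148b-5p arm has another seed, AAGUUCU, and thus other pairing sites.

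The 3 hairpins lie on different chromosomes. In GRCm38, mir-148a is at chr6:51269812-51269910 on the minus strand, between annotated genes, with the lincRNA *Gm32479* the nearest gene at 13622 bp. The mir-148b hairpin is at chr15:103285125-103285221 on the plus strand, within an intron of *Copz1* and on the same strand as that gene. The mir-152 hairpin is at chr11:96850393-96850465 on the plus strand, within an intron of *Copz2*, again on the strand of its host. *Copz1* and *Copz2* encode paralogous zeta subunits of the COPI vesicle coat, so mir-148b and mir-152 sit in related hosts while mir-148a has none. The nearest annotated miRNA to mir-148a, *Mir6371*, is 697304 bp away, to mir-148b *Mir6963* at 65234 bp and to mir-152 *Mir8103* at 213303 bp. No member is therefore close to another miRNA hairpin.

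The hairpin sequences are given because the deposited tables count reads on hairpins and on mature arms separately. Capitals mark the mature arms, the 5p arm first.
mmu-mir-148a: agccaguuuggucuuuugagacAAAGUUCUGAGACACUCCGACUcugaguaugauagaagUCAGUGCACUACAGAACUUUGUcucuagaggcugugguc
mmu-mir-148b: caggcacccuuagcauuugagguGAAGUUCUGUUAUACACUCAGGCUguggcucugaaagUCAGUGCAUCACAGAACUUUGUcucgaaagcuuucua
mmu-mir-152: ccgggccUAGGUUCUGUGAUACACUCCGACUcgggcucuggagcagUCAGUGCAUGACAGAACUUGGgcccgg

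Sites complementary to the shared seed were sought in the 3′ UTRs of the 2 targets named above, with the longest annotated 3′ UTR of each gene (GENCODE M21, GRCm38). The motif TGCACTG pairs with bases 2 to 8 of the miRNA, and TGCACTGA has in addition the A that faces base 1. It was searched on the transcribed strand only. The 312-nucleotide 3′ UTR of *Dnmt1* holds 1 site, of the longer type, at chr9:20907491-20907512 on the minus strand. The 4218-nucleotide 3′ UTR of *Bcl2l11* holds 3 sites, at chr2:128158464-128158485, chr2:128159223-128159244 and chr2:128162395-128162416 on the plus strand, of which the last is of the longer type. The positions are those of the printed stretches of 22 bases, which hold the site and the bases next to it. Capitals mark the 7 bases that pair with the seed.
*Dnmt1*: cccagagccccacgTGCACTGa
*Bcl2l11*, site 1: catggacagcgctcTGCACTGt
*Bcl2l11*, site 2: ctcgtgcgcttcacTGCACTGc
*Bcl2l11*, site 3: cttcctttacgtttTGCACTGa

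The 7-base motif occurred in the 3′ UTR of 12.7% of 21028 genes. Among genes whose 3′ UTR was within 20% of the length of that of *Dnmt1*, 3.12% held it, and among those near the length of that of *Bcl2l11*, 32.4% did. These matches describe the sequence and are not evidence of binding in iNKT cells.

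Hairpin counts summed to between 469117 and 1110226 per WT library and between 728653 and 1910526 per *Tet2/3* DKO library, and mature counts to between 1110852 and 2582057 and between 1837631 and 4361963. Levels are CPM, counts relative to a library total scaled by TMM, and a difference between genotypes is the log2 fold change of DKO over WT from edgeR, with p-values adjusted over all tested rows of its table by the Benjamini-Hochberg method. Among all rows, 59.7% of 350 hairpins and 55.6% of 401 mature miRNAs passed an adjusted p of 0.05. The share lower in *Tet2/3* DKO cells was 27.1% of hairpins and 27.4% of mature miRNAs, the share higher 32.6% and 28.2%, and values of the genotypes did not overlap for 32.0% and 27.2%. The split of calls depended on the scaling, with 56 hairpins lower and 151 higher, and 77 mature miRNAs lower and 142 higher, when libraries were scaled by size only. Markers of T cells and blood cells ranged in WT means from 76.0 CPM for miR-155-5p, a miRNA of activated lymphocytes, to 140494 CPM for miR-181a-5p, an abundant thymocyte miRNA. Small RNA alone does not separate iNKT cells from other T cells.

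miR-148a was the member that fell in *Tet2/3* DKO cells, in its 3p arm and in its hairpin. The miR-148a-3p arm measured 675.8, 637.8, 905.2, 781.3, 392.6 and 692.6 CPM in WT replicates 1 to 6. It measured 536.6, 404.9, 328.0, 252.2, 81.5, 482.3 and 361.3 CPM in DKO replicates 1 to 7. All 7 DKO libraries were thus below the WT median, and 5 of 6 WT libraries were above every DKO library. The groups overlapped through WT replicate 5 alone, which lay within the DKO range, and DKO replicate 5 lay far below the rest. The WT mean was 681 CPM ± 171 (SD, n = 6) and the DKO mean 350 CPM ± 151 (SD, n = 7). The log2 fold change was -0.96 (SE 0.333, 95% interval -1.68 to -0.24, edgeR adjusted p = 0.0249), a level 0.513 times that of WT. miR-148a-3p was the 77th most abundant of 401 mature miRNAs in WT and the 108th in DKO.

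The mir-148a hairpin gave the same picture with more scatter. Its lowest, median and highest WT values were 141, 314 and 460 CPM, and those of DKO were 17.9, 176 and 217 CPM. Counts behind them ran from 118 to 433 in WT and from 30 to 386 in DKO. As with the mature arm, 5 of 6 WT libraries were above all DKO libraries and WT replicate 5 was not. The log2 fold change was -1.10 (SE 0.428, 95% interval -2.02 to -0.17, edgeR adjusted p = 0.0405). That call was lost when any of 8 of the 13 mice was left out, namely WT replicates 2, 3, 4 and 6 and DKO replicates 2, 3, 4 and 6, with adjusted p up to 0.107, whereas the call for the mature arm held without each of the 13. Scaling by library size only gave adjusted p-values of 0.137 for the hairpin and 0.0860 for the arm, with changes of -0.76 and -0.73, against a median over all rows of 0.36 and 0.24 under that scaling.

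In bulk RNA, fewer cells with a miRNA and less of it per cell cannot be told apart. The other members did not pass the test, and no member changed by more than 2 on the log2 scale. Among all tested rows, 27.1% of hairpins and 27.4% of mature miRNAs passed as lower. A call of this kind was thus common and not particular to this family.

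miR-148b was the most even member of the family. In WT its 3p arm was nearly as abundant as that of miR-148a, while its hairpin had a higher level than mir-148a. The lowest, median and highest levels of miR-148b-3p were 570, 615 and 741 CPM in WT and 491, 581 and 665 CPM in DKO. The groups overlapped, with 3 DKO libraries below all WT libraries and 6 of 7 below the WT median. The log2 fold change was -0.14 (SE 0.112, 95% interval -0.37 to 0.09, edgeR adjusted p = 0.295), and it was 0.11 when libraries were scaled by size only. The mir-148b hairpin had means of 1535 CPM ± 228 (SD, n = 6) and 1418 CPM ± 147 (SD, n = 7). Its log2 fold change was -0.11 (SE 0.108, edgeR adjusted p = 0.372), and its sign and call depended on the scaling, with 0.22 by library size and -0.36 with an adjusted p of 0.0141 by upper quartile.

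The passenger arm miR-148b-5p was rare, at 8 to 25 counts in the WT mice and 11 to 72 in the DKO mice. Its mean level in WT was 10.3 CPM ± 5.99 (SD, n = 6), and in DKO it was 9.85 CPM ± 3.73 (SD, n = 7). The log2 fold change was -0.03 (SE 0.391, edgeR adjusted p = 0.959). The 95% interval from -0.84 to 0.79 leaves room for a change in either direction. The median ratio of miR-148b-5p to miR-148b-3p counts was 0.0135 in WT and 0.0153 in DKO, and the log2 ratio did not pass an exact permutation test over mice (difference 0.16, two-sided p = 0.702). In both genotypes the 3p arm was therefore the abundant one in every library.

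miR-152, which shares its seed with both miR-148 arms, was scarce in these cells. The lowest, median and highest levels of miR-152-3p were 13.1, 27.1 and 50.8 CPM in WT and 13.5, 23.9 and 50.8 CPM in DKO. The ranges were nearly the same in both genotypes. The log2 fold change was -0.30 (SE 0.344, 95% interval -1.02 to 0.42, edgeR adjusted p = 0.473). The mir-152 hairpin had at most 13 counts in any WT mouse and from 2 to 27 in the DKO mice, with 0 in WT replicate 5, where 3 counts would be 3.46 CPM. At this depth its log2 fold change of 0.46 (SE 0.607, 95% interval -0.81 to 1.73, edgeR adjusted p = 0.537) says little about the direction.

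**Figure D1:**
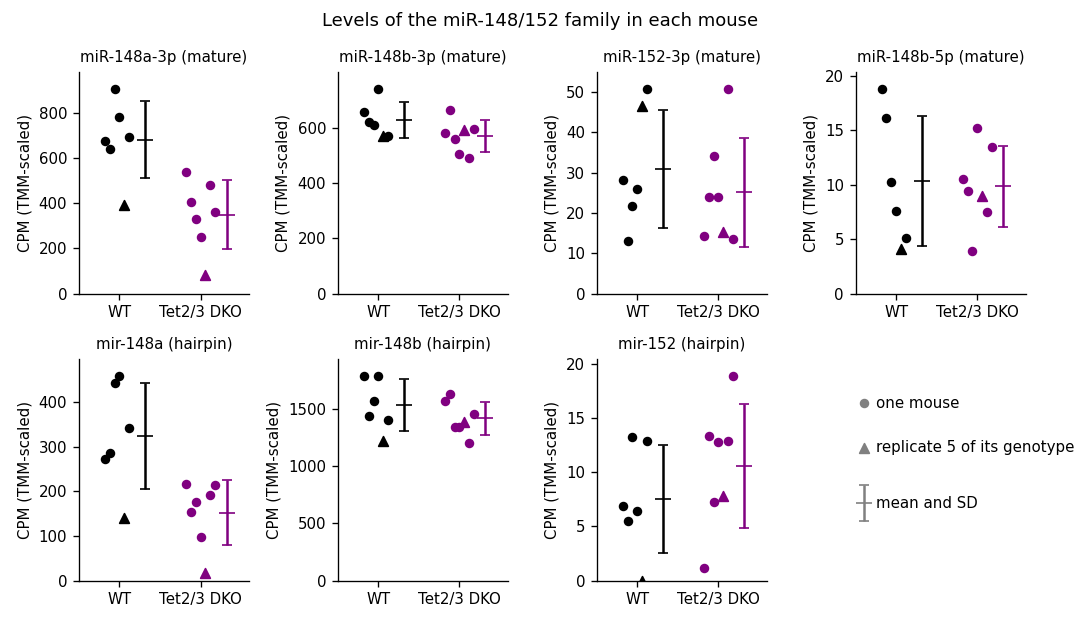
Level of each family member in every mouse, in CPM of TMM-scaled libraries on linear axes that start at 0 (WT black, n = 6; *Tet2/3* DKO purple, n = 7; bars, mean and SD; triangles, replicate 5 of each genotype). miR-148a-3p in DKO lies between 81.5 and 536.6 CPM against 392.6 to 905.2 CPM in WT. The genotypes of the other members also overlap.

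Whether the members differed from each other in their response was tested by ratios of counts within each library, which do not depend on the scaling. The 3 pairs of 3p arms and the 3 pairs of hairpins were compared by two-sided exact permutation tests over the 1716 ways to divide 13 mice into 6 and 7, with p-values adjusted over the pairs of each table. miR-148a-3p exceeded miR-148b-3p in 5 of 6 WT libraries and in 0 of 7 DKO libraries. Several of these were near-ties, with count ratios of 1.03 in WT replicates 1 and 2, 1.05 in WT replicate 4 and 0.983 in DKO replicate 6. The ratio of their counts ran from 0.688 to 1.49 in WT, with a median of 1.04, and from 0.138 to 0.983 in DKO, with a median of 0.608. On the log2 scale the WT mean was 0.08 ± 0.37 (SD, n = 6) and the DKO mean -0.89 ± 0.94 (SD, n = 7), a difference of -0.96 (exact permutation p = 0.0163, adjusted p = 0.0490). The adjusted value lies at the threshold. It passed 0.05 without each DKO mouse and without WT replicate 5, and did not pass without WT replicate 1, 2, 3, 4 or 6, where it reached 0.121.

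For the hairpins, the ratio of mir-148a to mir-148b went from a median of 0.221 in WT to 0.131 in DKO. The log2 difference was -1.19 (exact permutation p = 0.0198, adjusted p = 0.0594), which did not pass. It passed without WT replicate 5, DKO replicate 1 or DKO replicate 6, with adjusted p-values of 0.0455, 0.0292 and 0.0455. Without DKO replicate 5 the differences were -0.64 for the arms (adjusted p = 0.0455, exact permutation test) and -0.74 for the hairpins (adjusted p = 0.0844, exact permutation test).

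Ratios that involve miR-152 did not pass. The log2 difference was -0.78 for miR-148a-3p to miR-152-3p (exact permutation p = 0.168, adjusted p = 0.253) and 0.18 for miR-148b-3p to miR-152-3p (exact permutation p = 0.676, adjusted p = 0.676). For the hairpins it was -1.89 for mir-148a to mir-152 (exact permutation p = 0.0589, adjusted p = 0.0883) and -0.70 for mir-148b to mir-152 (exact permutation p = 0.423, adjusted p = 0.423). The first of these 2 passed without DKO replicate 1, with an adjusted p of 0.00649 by exact permutation. The difference for mir-148b to mir-152 was -0.097 without WT replicate 5 and -1.16 without DKO replicate 1. The log2 ratio of mir-148a to mir-152 had an SD of 1.19 in WT and 1.85 in DKO.

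**Figure D2:**
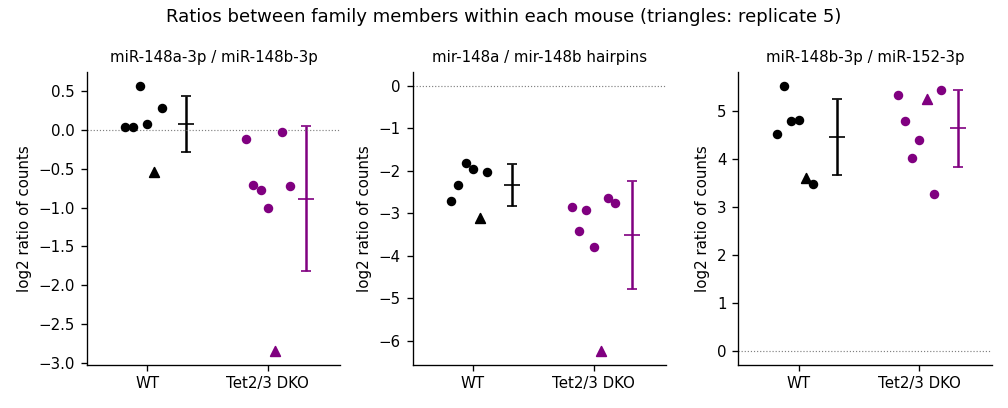
Log2 ratio of the counts of pairs of family members within each mouse (WT black, n = 6; *Tet2/3* DKO purple, n = 7; bars, mean and SD; triangles, replicate 5; dotted line, equal counts). miR-148a-3p is above miR-148b-3p in 5 of 6 WT and 0 of 7 DKO libraries, with libraries of both genotypes close to the dotted line. The miR-148b-3p to miR-152-3p ratio overlaps between genotypes over most of its range.

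The sum of the 3 seed-sharing arms and each arm's share of it describe the pool that could pair with the sites shown above. The WT sum was 1340 CPM ± 198 (SD, n = 6) and the DKO sum 944 CPM ± 162 (SD, n = 7), a log2 difference of -0.51, which was -0.27 when libraries were scaled by size only. The ranges were 1010 to 1548 CPM and 687 to 1132 CPM, so they overlapped. No test was made of the sum. miR-148a-3p held 50.1% ± 6.50 (SD) of it in WT and 35.5% ± 11.9 (SD) in DKO. miR-148b-3p held 47.4% ± 5.69 (SD) in WT and 61.8% ± 12.2 (SD) in DKO, and miR-152-3p only 2.44% ± 1.45 (SD) and 2.69% ± 1.32 (SD). The most abundant member of the pool was thus miR-148a-3p in 5 of 6 WT libraries and miR-148b-3p in all 7 DKO libraries. The margin was small in WT replicates 1, 2 and 4 and in DKO replicate 6.

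DKO replicate 5 stood apart in this pool. There, miR-148a-3p was 11.9% of 2688 family counts (95% Wilson interval 10.7 to 13.1, counting error only), against 32.3% to 47.4% in the other DKO libraries. The level of miR-148b-3p in the same library, 590 CPM, was within the range of the other DKO mice. Its correlation with the other DKO libraries over all tested mature miRNAs was 0.978 on average, and another library, DKO replicate 7, had a lower one at 0.973. Without DKO replicate 5 the log2 fold change of miR-148a-3p was -0.86 with a smaller SE of 0.179 (edgeR adjusted p = 0.000335), and that of the mir-148a hairpin was -0.91 (SE 0.254, edgeR adjusted p = 0.00525).

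The members also differed in how much mice of one genotype varied. The SD of log2 CPM within genotypes was 0.728 for miR-148a-3p, the largest of the 101 mature miRNAs at or above its mean level, where the next was miR-139-5p at 0.605. Among 30 mature miRNAs within 0.5 log2 units of its level the median SD was 0.244. Without DKO replicate 5 the SD was 0.401 and ranked 8th of the 101, so the first rank rested on that mouse. The mir-148a hairpin had an SD of 1.01, the largest of 166 hairpins at or above its level, and 0.534 and rank 12 without DKO replicate 5.

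miR-148b-3p lay at the other end, with an SD of 0.146 and rank 71 of the 80 miRNAs at or above its level. miR-152-3p had an SD of 0.698 and miR-148b-5p one of 0.699, at far lower counts. Over the 13 libraries, with each genotype's mean removed, miR-148a-3p and miR-148b-3p correlated with r = 0.060, miR-148a-3p and miR-152-3p with r = 0.097, and miR-148b-3p and miR-152-3p with r = -0.493. The near-identical arms thus showed little or negative correlation between mice of a genotype. These values are descriptions over libraries that share their scaling.

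**Figure D3:**
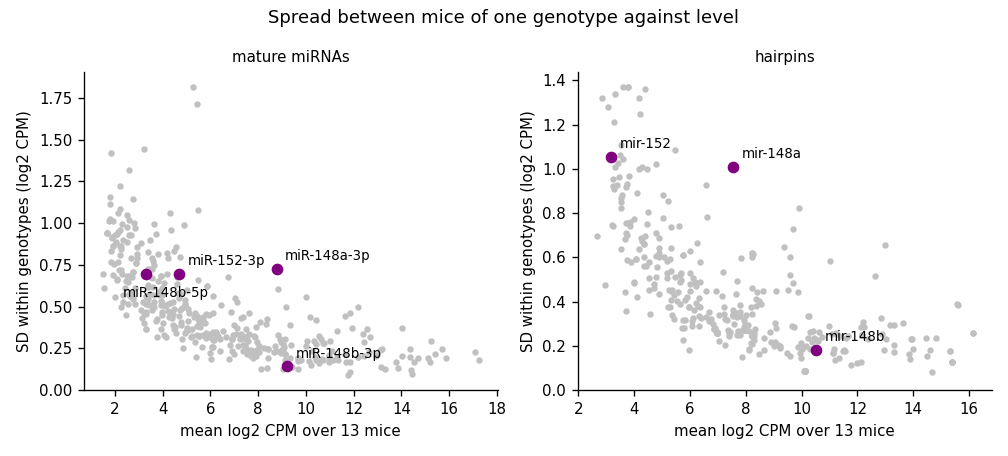
SD of log2 CPM between mice of the same genotype against mean log2 CPM over 13 mice, for tested mature miRNAs (left, n = 401) and hairpins (right, n = 350), with family members in purple. miR-148a-3p, at 0.728, and the mir-148a hairpin, at 1.01, lie above the other miRNAs of their level, and miR-148b-3p, at 0.146, lies low.

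The hairpin and mature counts of a member were compared because the tables count reads on both. Over all libraries the mir-148a hairpin had 19.3% as many counts as its mature arm, mir-152 had 15.1%, and mir-148b had 105.4% of its 2 arms. The median over 166 hairpins with at least 500 arm counts was 41.2%, and 38 of them had a higher share than mir-148b. What in the counting gives a hairpin more or fewer reads than its arms was not tested. The log2 ratio of hairpin to arms differed between genotypes by -0.16 for mir-148a (exact permutation p = 0.508), 0.07 for mir-148b (exact permutation p = 0.330) and 0.96 for mir-152 (exact permutation p = 0.372), each with an adjusted p of 0.508. Without WT replicate 5, which had 0 counts of the mir-152 hairpin, the last difference was 0.16, and over all mice left out it ranged from 0.16 to 1.28. With genotype means removed, the hairpin and 3p arm levels correlated with r = 0.968 for miR-148a, 0.843 for miR-148b and 0.003 for miR-152 over 13 libraries. Reads of a mature arm can also match the sequence of its hairpin. How they were counted is not given in the sources used here. Hairpin and arm values of a library were thus not taken as independent measurements.

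miRNAs whose levels moved with miR-148a-3p between mice of a genotype were ranked by the same correlation over the 400 other tested mature miRNAs. The 5 highest were miR-181b-1-3p (r = 0.887), miR-433-3p (r = 0.778), miR-126a-3p (r = 0.771), miR-345-5p (r = 0.735) and miR-18a-5p (r = 0.721), the second of them with as few as 1 count in a library. Without DKO replicate 5 the r of miR-126a-3p was 0.822, and those of the other 4 were lower than with it, the lowest being 0.442 for both miR-433-3p and miR-345-5p. For miR-148b-3p the 5 highest were miR-301a-3p (r = 0.773), miR-106b-5p (r = 0.753), miR-142a-3p (r = 0.748), miR-224-5p (r = 0.711) and miR-141-3p (r = 0.693). No miRNA was among the 5 for both arms. The log2 fold changes of the first group were above 0, from 0.69 to 1.38, though that of miR-433-3p did not pass (edgeR adjusted p = 0.0925). In the second group miR-301a-3p, miR-106b-5p and miR-224-5p were above 0 and miR-142a-3p and miR-141-3p below, from -0.65 to 0.998. Of these, miR-224-5p did not pass (edgeR adjusted p = 0.197) and had as few as 1 count in a library.

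Other miRNAs linked to DNA methyltransferases were set beside the family, since several miRNAs can bear on the same enzyme. Direct action on the mRNAs was not checked for each of them. Of 11 mature miRNAs of this kind, all tested, 6 were lower in *Tet2/3* DKO cells, 2 were higher and 3 did not pass, against 27.4% lower and 28.2% higher of all mature miRNAs. Their median log2 fold change was -0.55 against -0.01 over all tested mature miRNAs. When libraries were scaled by size only, 5 were lower and 3 higher, against 19.2% lower and 35.4% higher of all mature miRNAs under that scaling. miR-29b-3p, which acts on *Dnmt3a* and *Dnmt3b*, changed by -1.24 (SE 0.158), miR-143-3p by -1.20 (SE 0.330) and miR-140-5p by -0.83 (SE 0.116). The 6 lower arms also included miR-29a-3p and miR-29c-3p, of the same family as miR-29b-3p, and so are not all separate families. The rises were miR-126a-3p at 0.69 (SE 0.179) and miR-21a-5p at 0.27 (SE 0.100), and the second no longer passed with upper-quartile scaling. Of 12 hairpins of this kind 11 were tested, of which 6 were lower, 2 higher and 3 did not pass, against 27.1% lower and 32.6% higher of all hairpins. When libraries were scaled by size only, 3 were lower and 3 higher, against 16% lower and 43.1% higher of all hairpins under that scaling. Under TMM scaling the lower hairpins included mir-29a, mir-29b-1, mir-29b-2 and mir-29c, all of the miR-29 family. miR-143-3p is also a marker of stroma and miR-126a-3p of endothelium.

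Of 14 mature miRNAs known to act on *Bcl2l11*, 4 were lower, 4 were higher and 6 did not pass, which is near the 27.4% lower and 28.2% higher of all mature miRNAs. Their median log2 fold change was -0.03. When libraries were scaled by size only, 1 was lower and 5 were higher, against 19.2% lower and 35.4% higher of all mature miRNAs under that scaling. The falls were led by miR-32-5p at -1.11 (SE 0.224), miR-221-3p at -0.57 (SE 0.214) and miR-24-3p at -0.44 (SE 0.0956), and of these only miR-32-5p passed when libraries were scaled by size only. Relatives of miR-17, from paralogous clusters, were among those that rose, with miR-17-5p at 0.89 (SE 0.117), miR-20a-5p at 0.84 (SE 0.124) and miR-93-5p at 0.54 (SE 0.119). miR-106b-5p rose as well. Other listed arms of these clusters did not rise, since miR-92a-3p passed as lower at -0.41 (SE 0.142) and miR-19a-3p, miR-19b-3p and miR-25-3p did not pass. Of 16 hairpins of this kind, 3 were lower, 6 higher and 7 did not pass, against 27.1% lower and 32.6% higher of all hairpins. With upper-quartile scaling 6 were lower and 5 higher, against 39.1% lower and 26.6% higher of all hairpins under that scaling. Hairpins that give the same mature arm, such as the pairs of mir-24, mir-29b and mir-181a, can share reads.

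A few other miRNAs carry the bases CAGUGCA at positions 1 to 7 instead of 2 to 8 and so share most of the seed, shifted by 1 base. Of 7 such sequences in the RefSeq table, 3 were in the count table, and all 3 passed the test. Of all tested mature miRNAs 55.6% passed, 28.2% as higher and 27.4% as lower. miR-130b-3p, at 3005 CPM in WT and 4320 CPM in DKO, rose by 0.52 (SE 0.109), and miR-301a-3p, at 356 and 587 CPM, rose by 0.72 (SE 0.165). miR-130a-3p, at 19.7 and 3.61 CPM, changed by -2.51 (SE 0.468). The 2 more abundant of these offset-seed miRNAs therefore went up while miR-148a-3p went down.

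**Figure D4:**
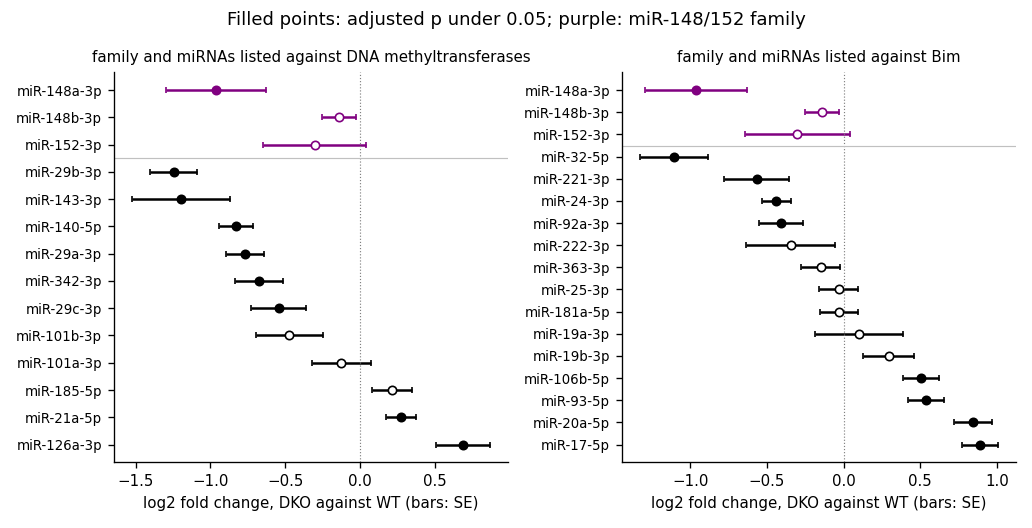
Log2 fold change of DKO against WT (edgeR, bars SE), with the 3 arms of the family in purple. Black points are 11 mature miRNAs linked to DNA methyltransferases (left) and 14 known to act on *Bcl2l11* (right). Filled points passed an adjusted p of 0.05: miR-148a-3p at -0.96 lies among the falling miRNAs on both sides, with miR-29b-3p at -1.24 the lowest on the left and miR-32-5p at -1.11 the lowest of the black points on the right.

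Markers of other cell types were lower in *Tet2/3* DKO libraries together with miR-148a. Markers of red cells (log2 fold change -3.64 for miR-451a and -2.30 for miR-486a-5p and miR-486b-5p, which have the same values and count as 1 marker), all 4 of stroma (median -2.90), the myeloid marker miR-223-3p (-3.07), 3 of 5 of epithelium (median of the 5, -0.65) and 1 of 3 of liver (miR-122-5p, -3.87) passed as lower, while the endothelial miR-126a-3p passed as higher (0.69). Of the T cell and blood cell markers 2 of 5 were lower. For comparison with each of these lists, 27.4% of all mature miRNAs were lower and 28.2% higher. The red cell marker miR-144-3p and the epithelial miR-205-5p had too few counts to be tested. No marker was at 0 in every library, and the epithelial marker miR-205-5p had at most 5 counts in any. Summed levels in WT and DKO ran from 67.6 to 120.5 and from 12.0 to 22.6 CPM for stroma, from 119 to 238 and from 14.1 to 68.5 CPM for red cells, from 642 to 1444 and from 535 to 690 CPM for liver, and from 1249 to 1656 and from 806 to 1056 CPM for epithelium. The myeloid marker ran from 2.31 to 91.7 and from 0.633 to 6.57 CPM, and the endothelial marker from 72.5 to 154 and from 139 to 247 CPM. WT replicate 5 had the highest sums for stroma, liver and epithelium of all WT libraries and the lowest endothelial marker and miR-148a-3p. DKO replicate 5, with the lowest miR-148a-3p of all, had the highest red cell sum and the lowest endothelial marker of the DKO libraries and lay within their range for the other lists. The part of other cell types in the fall of miR-148a was not tested.

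The difference of each arm was computed under other scalings, filters, tests and sets of mice. miR-148a-3p was lower in DKO under each of the 8 alternatives and without each of the 13 mice, with log2 fold changes from -1.19 to -0.73. It did not pass the test when libraries were scaled by size only or when every row with at least 1 count was kept, where the adjusted p was 0.104. The adjusted p ranged from 0.00569 to 0.104 over the 8 alternatives and from 0.000335 to 0.0427 over the mice left out. miR-148b-3p and miR-152-3p did not pass under any of them, and their intervals do not show that they were unaffected.

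**Figure D5:**
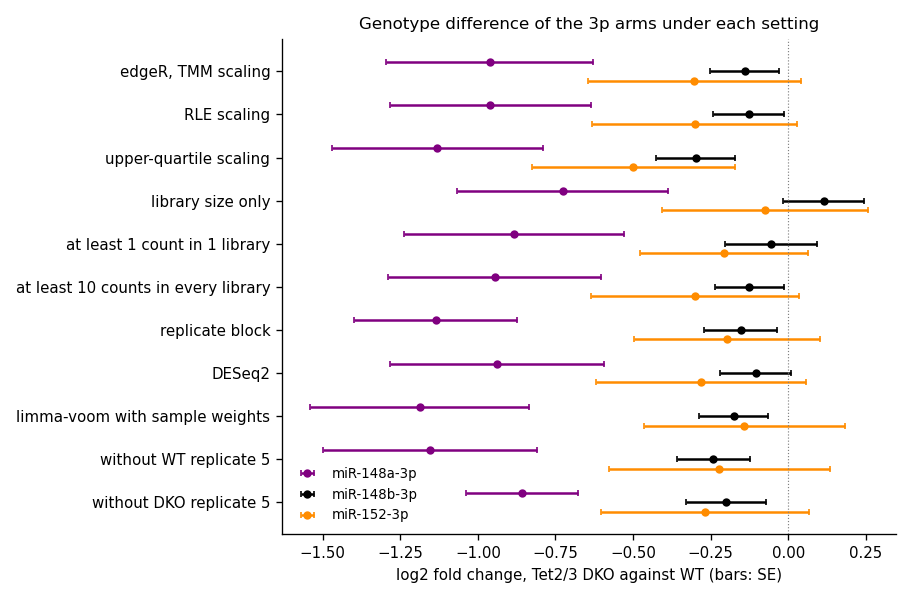
Log2 fold change of DKO against WT with SE bars for the 3p arms of the family under the edgeR fit with TMM scaling, each of 8 alternatives, and without replicate 5 of either genotype. miR-148a-3p stays left of 0, from -1.19 to -0.73, and miR-148b-3p moves from -0.30 with upper-quartile scaling to 0.11 with scaling by library size only.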

How the data were processed

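Small RNA libraries of sorted thymic iNKT cells (purity above 98% by the study's methods) from 6 WT and 7 *Tet2/3* DKO mice were read from one end for 50 bases. The authors processed the reads with nf-core/smrnaseq 2.2.4 at default parameters and deposited raw counts per hairpin and per mature miRNA, 1 column per mouse, with mm10 as the build in the submitters' processing notes. The read aligner, the miRBase release and the handling of multi-mapping reads are not given in the sources used here. Counts come from reads without known molecular identifiers. The Wilson intervals of shares cover counting error only, whereas the intervals of log2 fold changes also include variation between mice. No 2 libraries of one genotype agreed within sampling noise (chi-square per degree of freedom at least 15.0). This check cannot show that libraries come from different mice. Each was taken as 1 replicate because the study describes them as biological replicates.

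Rows of the deposited count tables were kept by filterByExpr (edgeR 4.0.16, at least 10 counts in enough libraries and 15 in total), scaled by TMM and fitted by robust quasi-likelihood with genotype only, over each whole table, with Benjamini-Hochberg adjustment and a threshold of 0.05. Log2 CPM used a prior count of 2 and ratios a pseudocount of 0.5, with two-sided exact permutation tests (Python 3.11.15, scipy 1.17.1). Intervals of log2 fold changes are at 95% from the fit's degrees of freedom. The fit and the tests were checked on simulated counts. Alternatives were RLE, library size and upper-quartile scaling, 2 other count filters, the replicate number as a block, DESeq2 1.42.0, weighted limma-voom (limma 3.58.1), and fits without each mouse.

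The miRNAs named are the family's rows, the 5 most correlated with each of 2 arms, and from each list up to 3 past the threshold in each direction by size, with the cell type markers by list. Listed members of the miR-29 family and of the miR-17 clusters are named as well. Members and lists were chosen with earlier results of these data known. Sequences and hairpin positions come from RefSeq (GRCm38.p6) and 3′ UTRs from GENCODE M21.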

Additional observations from a re-analysis of the deposited data

Results flagged for a closer look

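In 9 of 34 groups of values of the family, 1 mouse lay so far from its group that the gap to its nearest neighbour was above Dixon's 95% limit. Chance would give about 1 in 20 groups, or 1.7 here, and the items are not independent, since ratios share members. Whether hairpins and arms share reads is not given in the sources used here. The mouse was DKO replicate 5 in 4 cases, all of which involve miR-148a. Its log2 CPM was 4.29 for mir-148a, where the next DKO library had 6.62, and 6.36 for miR-148a-3p, where the next had 7.98. Its log2 ratio was -2.85 for miR-148a-3p to miR-148b-3p, against -1.002 in the next library, and -6.25 for mir-148a to mir-148b, against -3.79. Of the other 5 cases, all of which involve the mir-152 hairpin, 3 were WT replicate 5, with 0 counts of that hairpin. Its log2 CPM of mir-152 was 0.70, against 2.83 in the next library, its log2 ratio of mir-148b to mir-152 was 11.05, against 8.02, and its log2 ratio of mir-152 to the mature arm was -7.52, against -3.17. The last 2 cases were DKO replicate 1, with 2 counts of mir-152, where the log2 CPM was 1.46, against 3.15, and the log2 ratio of mir-148b to mir-152 was 10.12, against 7.45. A value at or under 3 counts depends on the pseudocount.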

How the results depend on the processing

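Under library size scaling the log2 fold change was -0.76 for mir-148a (adjusted p = 0.137) and -0.73 for miR-148a-3p (adjusted p = 0.0860), and the sign turned for mir-148b (0.22), miR-148b-3p (0.11) and miR-148b-5p (0.21). With every row of at least 1 count kept, the values were -0.91 for mir-148a (adjusted p = 0.179), -0.88 for miR-148a-3p (adjusted p = 0.104), 0.076 for mir-148b and 0.061 for miR-148b-5p. miR-148b-5p was at 0.0098 with DESeq2 and 0.028 with limma-voom, and mir-148b at -0.36 with upper-quartile scaling (adjusted p = 0.0141). Hairpins lower in DKO numbered 95 and became 56 with library size scaling, 156 with all rows kept and 160 with DESeq2. The cause of these shifts was not tested.

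Without each mouse in turn, mir-148a ranged from -1.25 to -0.90 and passed in 5 of 13 fits, and miR-148a-3p from -1.15 to -0.86 and passed in 13 of 13. miR-148b-5p ranged from -0.28 to 0.14. The log2 ratio difference ranged from -1.11 to -0.64 for miR-148a-3p to miR-148b-3p (8 of 13 passed), from -0.013 to 0.41 for miR-148b-3p to miR-152-3p, from -0.036 to 0.35 for miR-148b-5p to miR-148b-3p, from -1.35 to -0.74 for mir-148a to mir-148b (3 passed), from -2.47 to -1.45 for mir-148a to mir-152 (1 passed), from -1.16 to -0.097 for mir-148b to mir-152 and from 0.16 to 1.28 for mir-152 to its arm. The mir-152 hairpin passed the count filter in 9 of the 13 fits, and with at least 10 counts in every library it and miR-148b-5p had no value.

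Replicate numbers are not said to mark litters or days, and deviations of same-numbered mice correlated from -0.050 to 0.342 for hairpins and from 0.012 to 0.335 for mature miRNAs, with only numbers 5 and 6 best with their own number, so they were not taken as pairs. With the replicate block mir-148a was at -1.37 (adjusted p = 0.00263), miR-148a-3p at -1.14 (adjusted p = 0.00569) and the miR-148a-3p to miR-148b-3p ratio at -0.99 (exact permutation p = 0.03125, the smallest that 6 numbers allow, adjusted p = 0.0938). Low counts limit mir-152 and miR-148b-5p.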
